A study of Rattus norvegicus with 4 samples.

Results

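This report follows 38 genes known for their expression in astrocytes and in Bergmann glia, the radial astrocytes of the cerebellum, across cerebellum and prefrontal cortex of male rats. The genes were listed by symbol, with earlier results of these data known. Of the 38, 36 had at least 1 probe whose RefSeq accession carries their symbol, out of 15437 named genes, and Sox9 and Hepacam had no such probe. All 36 were well above background on all 4 arrays, so no filter removed any of them. The RNA came from rats picked out of 106 by the share of time they spent immobile in the forced swimming test, and per the labels it was taken 1 week after that test. Rats with depressive-like immobility form the depressive state and rats with average immobility the control state, so controls had swum too. No drug, surgery or genetic change is named for either state, and strain and age are not given in the sources used here. Each of the 4 combinations of tissue and state is 1 array with RNA of 4 pooled rats, cut as a slice 1 mm thick that holds every cell type of that slice.

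Astrocytes clear glutamate and potassium from the space around synapses, move water through aquaporin channels at blood vessels, couple to each other through gap junctions, and supply neurons with lipids, glutamine and energy substrates. Bergmann glia are their specialised form in the cerebellar cortex, with cell bodies beside the Purkinje cells and fibres that wrap the Purkinje dendrites. They share much of the astrocyte gene set, and they take up most of the glutamate released there through the transporter encoded by Slc1a3, whereas cortical astrocytes rely mainly on that of Slc1a2.

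Signals are Agilent processed signals of 1-colour arrays, a spot brightness after background subtraction. Differences are on the log2 scale after subtraction of each array's 75th percentile, and a gene is read from its brightest probe, so levels of different genes are not comparable. SE is a technical error. It takes the spread of spots that repeat a probe on an array, pooled over probes of like brightness, and the number of spots of the gene's probe. It is thus not the spread of the gene's own spots, and a probe with 1 spot has one too. The share of probes well above background was 73.1% to 78.2% on the 4 arrays. For control prefrontal cortex and depressive cerebellum, the linked scanner files match each other's column in the deposited value table, so each file was read as the sample whose column it matches, and every result below rests on that reading. The tissue markers follow it: all 7 granule neuron and all 7 Purkinje cell genes were at least 2-fold higher in cerebellum in both states, and 7 of 10 cortical neuron genes at least 2-fold lower. With RNA of whole slices, fewer cells of a type and less RNA per cell cannot be told apart.

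**Figure D1:**
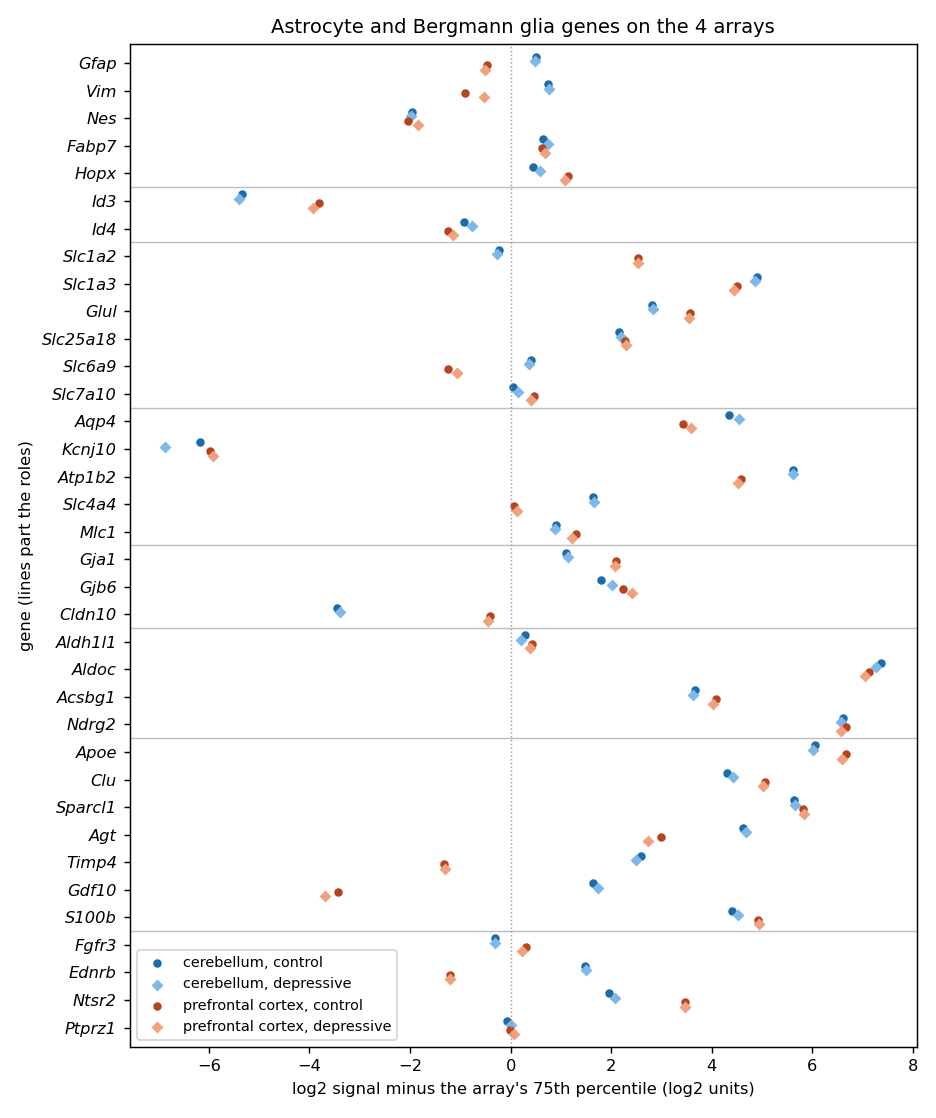
Level of the 36 measured genes on each of the 4 arrays, as log2 signal of the brightest probe minus the 75th percentile of the array, with genes in the order of their roles and 1 point per array. Points of the same tissue lie close together for nearly every gene, and Gdf10, Timp4, Ednrb, Cldn10 and Slc1a2 show the widest gap between tissues.

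The first comparison asked how the genes differ between the tissues. Astrocyte genes did not move as a block: 8 of the 36 were at least 2-fold higher in cerebellum, namely Gdf10, Timp4, Ednrb, Agt, Slc4a4, Slc6a9, Vim and Atp1b2, and 4 were at least 2-fold lower, namely Cldn10, Slc1a2, Id3 and Ntsr2. The same 8 and 4 genes passed 2-fold in control and in depressive rats. The background in control rats was 23.9% of all measured genes at 2-fold, with 9.82% higher in cerebellum and 14.1% lower, and in depressive rats it was 23.6%, with 9.13% higher and 14.5% lower. The median difference of the 36 genes was -0.13 in control and -0.15 in depressive rats, beside -0.02 and -0.06 over all genes. With 1 array in each group there is no test within a state.

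A fit over all 4 arrays with limma, with state as a block (residual degrees of freedom 1), takes the control and the depressive pool of a tissue as replicates. In this fit 29 of the 36 genes passed an adjusted p of 0.05, 13 higher and 16 lower in cerebellum. As 72.8% of 11618 genes tested passed as well, 34.7% higher and 38% lower, that count is near the background. Each array was also left out in turn. These fits had no state block and left 1 array in 1 tissue, so a state difference can enter the tissue difference. The calls of Aldoc, Gjb6, Id4, Slc7a10 and Sparcl1 did not hold without some array. Across these fits the tissue difference ran from 0.18 to 0.29 for Aldoc, beside 0.23 with all 4 arrays. It ran from -0.52 to -0.31 for Gjb6, beside -0.42, and from 0.26 to 0.43 for Id4, beside 0.35. All adjusted p-values are limma's with Benjamini-Hochberg adjustment over these 11618 genes.

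**Figure D2:**
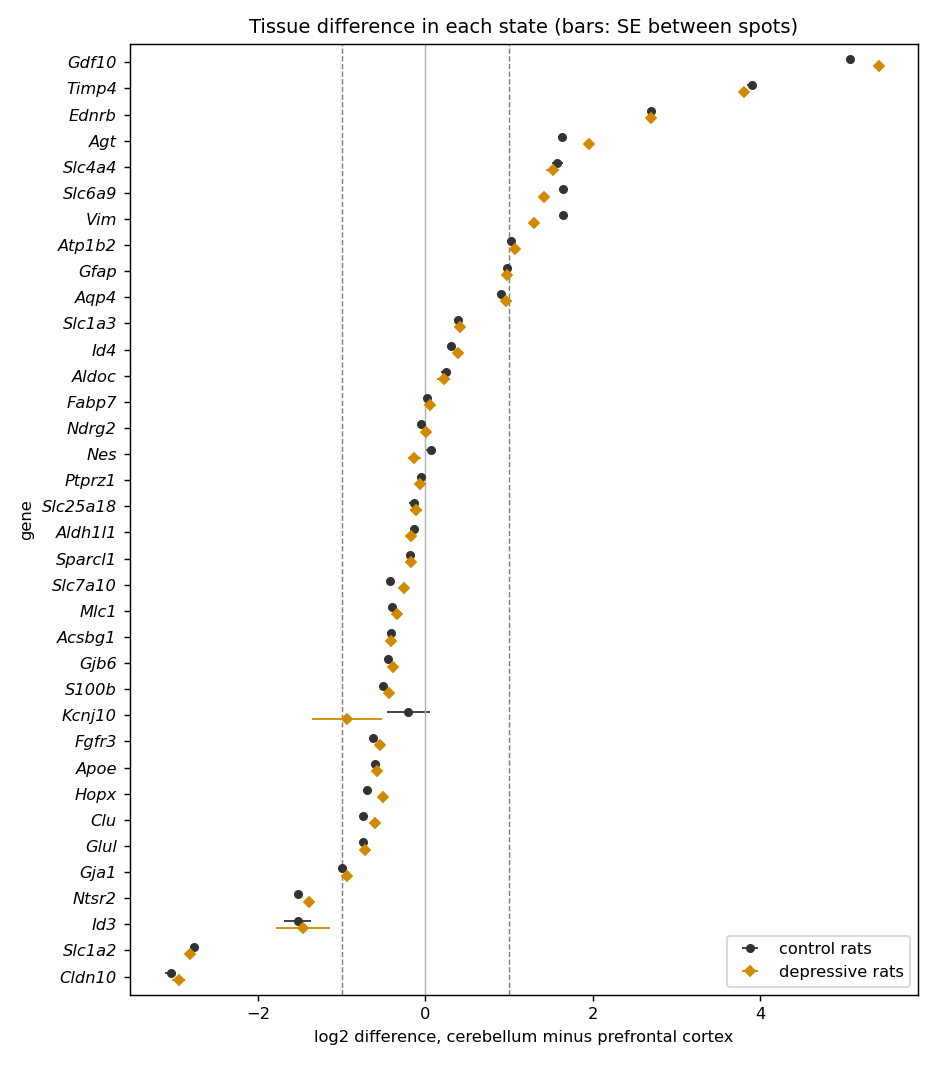
Difference between cerebellum and prefrontal cortex for each of the 36 genes in control rats (circles) and depressive rats (diamonds), on the log2 scale, with bars for the SE between spots and dashed lines at 2-fold. Most pairs of points lie on or beside each other, from Gdf10 at 5.07 and 5.42 down to Cldn10 at -3.04 and -2.95.

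The secreted proteins held the widest gaps. Gdf10, a growth factor of the transforming growth factor beta family made by Bergmann glia, gave signals of 12541 in the control and 14602 in the depressive cerebellum pool, against 289 and 255 in prefrontal cortex, an order of states kept below. It was 33.6-fold higher in cerebellum in control rats (log2 5.07, SE 0.03) and 42.9-fold in depressive rats (5.42, SE 0.04), and only 1.15% and 0.907% of all genes differed as much. Timp4, an inhibitor of matrix metalloproteinases, gave 24083 and 24633 in cerebellum against 1251 and 1319 in prefrontal cortex, which is 14.9-fold and 14.0-fold. Its dimmer probe gave log2 differences of 3.85 and 3.67 beside 3.90 and 3.81. Agt, angiotensinogen, the precursor of angiotensin, which brain astrocytes make, gave 99441 and 112158 against 24816 and 21638.5, or 3.11-fold and 3.89-fold. All 3 passed the fit, with adjusted p of 0.000246, 0.000189 and 0.00104 in limma. The other 4 secreted proteins were lower in cerebellum, by less than 2-fold: Clu, clusterin, at 1.68-fold and 1.52-fold, Apoe, the main lipid carrier of the brain, at 1.52-fold and 1.498-fold, S100b, a calcium-binding protein, at 1.42-fold and 1.35-fold, and Sparcl1, a matrix protein that promotes synapse formation, at 1.14-fold and 1.13-fold. These 4 passed in limma too, with adjusted p of 0.00292, 0.00227, 0.00456 and 0.0411, but S100b did not under median scaling (0.0800), and Sparcl1 changed sign after quantile normalization, at 0.03 in the fit.

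Of the genes that handle transmitters, 2 passed as higher and 3 as lower in cerebellum. Slc1a2, the glutamate transporter GLT-1, gave signals of 3407 and 3611 in cerebellum and 18000.4 and 18978.5 in prefrontal cortex, 6.82-fold and 7.005-fold lower in cerebellum (adjusted p = 0.000224, limma). Its other probe, to another RefSeq transcript, gave log2 differences of -2.74 and -2.79, beside -2.77 and -2.81. Slc1a3, the glutamate transporter GLAST, gave 119627 and 126783 in cerebellum and 70602 and 71447 in prefrontal cortex, 1.31-fold and 1.33-fold higher in cerebellum (adjusted p = 0.00543, limma, and 0.119 under median scaling). The differences of these glutamate transporters had opposite signs in both states. Slc6a9, the glycine transporter GlyT1, was 3.13-fold and 2.67-fold higher in cerebellum, with signals of 5312 and 5603 against 1314 and 1575, and both of its probes gave this direction. Glul, glutamine synthetase, was 1.68-fold and 1.64-fold lower in cerebellum, and Slc7a10, a transporter of D-serine and small neutral amino acids, 1.34-fold and 1.196-fold lower. Slc6a9, Glul and Slc7a10 passed in limma with adjusted p of 0.000919, 0.0015 and 0.017. Slc25a18, a mitochondrial glutamate carrier, had log2 differences of -0.13 and -0.11 and did not pass (adjusted p = 0.101, limma). Its other probe gave 0.10 and -0.02.

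Among genes of water, ion and bicarbonate handling, Slc4a4, the sodium bicarbonate cotransporter NBCe1, was 2.98-fold and 2.87-fold higher in cerebellum, with signals of 12558 and 13759.6 against 3263 and 3595. Its dimmer probe gave a wider gap, 2.75 and 2.31 on the log2 scale beside 1.58 and 1.52. Atp1b2, a beta subunit of the sodium pump in glia, was 2.03-fold and 2.11-fold higher. Aqp4, the water channel of astrocyte endfeet, was 1.87-fold and 1.94-fold higher, just under 2-fold, and its other probes gave log2 differences of 0.56 to 0.77. Slc4a4, Atp1b2 and Aqp4 passed in limma, with adjusted p of 0.000430, 0.000813 and 0.00101. Mlc1, a membrane protein of astrocyte endfeet that is mutated in a leukodystrophy, was 1.32-fold and 1.26-fold lower in cerebellum (adjusted p = 0.00762, limma, and 0.183 under median scaling). Kcnj10, the glial potassium channel Kir4.1, gave the dimmest signals of the set, 55.6 and 37.5 in cerebellum against 49.7 and 53.8 in prefrontal cortex. Its differences of -0.20 (SE 0.25) and -0.94 (SE 0.42) did not pass (adjusted p = 0.0775, limma). They passed after normexp background correction (0.00231) and after median scaling (0.0275). The tissue difference of Kcnj10 was -0.92 without the control and -0.225 without the depressive cerebellum array, in fits without the state block.

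The junction genes all lay lower in cerebellum. Cldn10, claudin 10, a tight junction protein, gave 366 and 416 in cerebellum against 2339 and 2415 in prefrontal cortex, 8.23-fold and 7.73-fold lower (adjusted p = 0.000224, limma). Gja1, connexin 43, the main gap junction protein of astrocytes, gave 8598 and 9582 against 13262 and 13745, 1.99-fold and 1.91-fold lower (adjusted p = 0.000956). Its 10 spots on each cerebellum array lay between 1.04 and 1.18 on the scaled log2 scale and those on each prefrontal cortex array between 2.05 and 2.13, so the tissues did not overlap. Gjb6, connexin 30, was 1.36-fold and 1.31-fold lower (adjusted p = 0.00546, limma).

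Gfap, the intermediate filament that defines astrocytes in most stains, gave 5669 and 6081 in cerebellum and 2243 and 2311 in prefrontal cortex. It was 1.96-fold and 1.97-fold higher in cerebellum (log2 0.97, SE 0.02, and 0.98, SE 0.03, adjusted p = 0.000858 in limma), and its spots did not overlap between tissues. Vim, vimentin, a filament of immature and reactive glia that endothelial and meningeal cells also make, was 3.13-fold and 2.45-fold higher, with 6729.5 and 7445 against 1665 and 2279 (adjusted p = 0.00175, limma). Hopx, a homeodomain protein of radial glia and a marker of Bergmann glia, was 1.62-fold and 1.41-fold lower in cerebellum (adjusted p = 0.00526, limma). Fabp7, the brain fatty acid binding protein of radial glia, and Nes, the filament nestin, did not pass (adjusted p = 0.510 and 0.711, limma). The sign for Nes differed between the states on its brightest probe, at 0.07 and -0.13, but not on its other, at -0.14 and -0.09. The 3 genes tied to Bergmann glia above thus lay on both sides, with Gdf10 and Slc1a3 higher and Hopx lower. Slc1a3 was less than 2-fold higher and lost its call under median scaling. Fabp7 lay near 0, with log2 differences of 0.02 and 0.06.

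The Id proteins block basic helix-loop-helix transcription factors. Id3 gave 98.9 and 103 in cerebellum against 221 and 214 in prefrontal cortex, 2.88-fold and 2.77-fold lower at a low signal (SE 0.16 and 0.32). Id4 was 1.24-fold and 1.31-fold higher. Both passed in limma, with adjusted p of 0.000459 and 0.00953. Of the metabolic genes, Aldh1l1, a folate enzyme used as a marker of all astrocytes, had log2 differences of -0.13 and -0.17 and did not pass (adjusted p = 0.0648, limma). Ndrg2, a cytosolic protein of astrocytes, had -0.05 and 0.01 and did not pass either (0.705), but passed as higher after quantile normalization, at 0.30 (0.0104). Acsbg1, a fatty acid activating enzyme, was 1.33-fold lower in both states (adjusted p = 0.00509, limma, and 0.130 under median scaling). Aldoc, the glycolytic enzyme aldolase C, which stripes of Purkinje cells make as well, was 1.19-fold and 1.16-fold higher on its brightest probe and 0.83 and 0.81 on the log2 scale on its other (adjusted p = 0.0219 for the brightest, limma).

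Receptors went both ways as well. Ednrb, the endothelin B receptor, gave 11256 and 12287 in cerebellum against 1344 and 1419.7 in prefrontal cortex, 6.49-fold higher in both states (adjusted p = 0.000224, limma). Ntsr2, a neurotensin receptor of astrocytes, gave 15604 and 18498 against 34629 and 36294, 2.86-fold and 2.62-fold lower (adjusted p = 0.000629). Fgfr3, a fibroblast growth factor receptor, was 1.54-fold and 1.46-fold lower (adjusted p = 0.00286, limma). Ptprz1, a receptor phosphatase of glia, had differences of -0.05 and -0.07 and did not pass (adjusted p = 0.364, limma).

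The tissue differences of the states rest on separate arrays, which share 1 slide. Their sign was the same for 34 of 36 genes, Nes and Ndrg2 being the exceptions, and across the 36 genes they correlated at a Pearson r of 0.99, which describes genes and not replicates. The median gap between the states was 0.06, and 26 genes differed by less than 0.1. The same agreement was not computed over all genes. Of all genes, 79.8% in cerebellum and 84.4% in prefrontal cortex lay within 0.2 of 0 between states. The agreement is therefore not read as particular to the 36 genes. The gap exceeded 0.3 for 4 genes: Kcnj10 (-0.73), Vim (-0.35), Gdf10 (0.35) and Agt (0.32), taken as the depressive-minus-control difference in cerebellum less that in prefrontal cortex. Summed over the 36 genes, the signal in units of the 75th percentile was 608 and 599 in cerebellum and 604 and 582 in prefrontal cortex. A few bright genes carry much of this sum, with Aldoc the brightest on each array. As levels of different genes are not comparable, it does not measure astrocyte content.

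Promoter sequences are shown for the pair of genes highest and the pair lowest in cerebellum, since these carry the contrast between tissues. Each is the 250 bases before the start that RefSeq lists for rat assembly GRCr8, written 5′ to 3′ on the gene's strand, with capitals for a CCAAT box (CCAAT), a GC box (GGGCGG) or a TATA box (TATAAA) on either strand. The Gdf10 promoter lies at chr16:9243262-9243511 on the plus strand, that of Timp4 at chr4:149985205-149985454 on the minus strand, that of Cldn10 at chr15:102269608-102269857 on the plus strand and the first of 2 listed for Slc1a2 at chr3:109459859-109460108 on the plus strand.
Gdf10: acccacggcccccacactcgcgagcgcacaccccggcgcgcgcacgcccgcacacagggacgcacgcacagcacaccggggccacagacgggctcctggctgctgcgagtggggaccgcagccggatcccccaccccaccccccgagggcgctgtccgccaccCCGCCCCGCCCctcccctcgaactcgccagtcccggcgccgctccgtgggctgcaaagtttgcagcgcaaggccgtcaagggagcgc
Timp4: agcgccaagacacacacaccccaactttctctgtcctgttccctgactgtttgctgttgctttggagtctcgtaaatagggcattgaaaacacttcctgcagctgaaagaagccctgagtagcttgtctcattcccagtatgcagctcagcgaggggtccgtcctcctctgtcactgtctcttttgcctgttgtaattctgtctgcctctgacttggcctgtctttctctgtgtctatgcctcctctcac
Cldn10: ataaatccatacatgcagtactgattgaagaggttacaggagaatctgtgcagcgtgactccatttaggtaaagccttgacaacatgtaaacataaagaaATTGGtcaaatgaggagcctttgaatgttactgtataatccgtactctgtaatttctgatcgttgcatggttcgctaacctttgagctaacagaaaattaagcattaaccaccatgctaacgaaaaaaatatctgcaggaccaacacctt
Slc1a2: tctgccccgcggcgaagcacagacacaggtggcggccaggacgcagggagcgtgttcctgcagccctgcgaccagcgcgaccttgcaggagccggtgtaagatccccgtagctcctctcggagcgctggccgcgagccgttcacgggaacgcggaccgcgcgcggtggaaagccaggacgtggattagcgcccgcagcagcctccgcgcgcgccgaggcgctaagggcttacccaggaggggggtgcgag
The Gdf10 window is rich in g and c and holds 2 overlapping GC boxes, that of Cldn10 holds 1 CCAAT box, and those of Timp4 and Slc1a2 hold none of the 3 motifs. Of the 36 genes, 33 had a promoter in the table. With the first start of each gene, 18 of the 33 held a GC box beside 32.4% of 27457 genes, 12 a CCAAT box beside 34.3%, and 3 a TATA box beside 13.1%. A STAT motif (TTCNNNGAA) was found in 2 of them, Acsbg1 and Ntsr2, beside 7.52% of all genes, and a GLI motif (GACCACCCA) or the palindromic nuclear factor I motif in 0, beside 0.331% and 0.0401%. A match describes letters in this window and is not a binding site.

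Further astrocyte genes, which are not among the 38, were lower in cerebellum more often than higher. Of 40 such genes 37 were measured in both states, and 36 entered the fit, where 11 passed as higher and 23 as lower in cerebellum, beside 34.7% and 38% of all genes tested, the background for the lists that follow as well. Their median difference was -0.60 in control and -0.42 in depressive rats. The largest were Gpc5, a glypican of the cell surface, with signals of 73.8 and 84.7 in cerebellum against 1586 and 1618 in prefrontal cortex, Chrdl1, an inhibitor of bone morphogenetic proteins, with 43.2 and 43.9 against 625 and 595, and Pax6, a transcription factor that granule neurons make too, which was 13.7-fold and 11.9-fold higher in cerebellum. Hedgehog from Purkinje cells signals to Bergmann glia. Of 12 genes of the sonic hedgehog pathway 8 were tested, of which 5 passed as higher and 1 as lower in cerebellum. Cdon, a co-receptor, was 5.05-fold and 4.34-fold higher, at low signals of 112 and 88.7 in cerebellum against 17.1 and 15.3 in prefrontal cortex. Ptch1, the receptor, was 3.34-fold and 3.08-fold higher, and Gli1, a transcription factor that the pathway induces, 2.99-fold and 3.17-fold. Gli3 was the 1 that passed as lower, at 2.51-fold and 2.25-fold. Shh itself had log2 differences of -0.21 and -0.14 and did not pass (adjusted p = 0.0507, limma). Of 22 genes linked to reactive astrocytes 19 were tested, of which 9 passed as higher and 6 as lower, near the 72.8% of all genes that passed. Aspg, an asparaginase, was 17.2-fold and 8.97-fold higher, Fbln5, a matrix protein, 3.73-fold and 4.51-fold higher, and S100a10, a partner of annexin, 4.13-fold and 3.61-fold lower.

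Markers of other cells also differed between the tissues, and their part in the differences above was not tested. In control and depressive rats, the median log2 difference was 1.72 and 1.02 for 10 meningeal genes, 4.91 and 5.999 for 10 choroid plexus genes and 1.04 and 0.73 for 12 oligodendrocyte genes. It was -1.11 and -1.04 for 10 microglia genes, -0.55 and -0.58 for 9 endothelial genes, -0.20 and -0.31 for 6 oligodendrocyte precursor genes, 0.57 and 1.86 for 7 ependymal genes and -1.12 and -0.69 for 5 blood genes. Meningeal genes summed to 95.7 and 104 in units of the 75th percentile in cerebellum and to 21.2 and 40.5 in prefrontal cortex. Bright genes weigh most in such a sum, and Ptgds was the brightest of the 10 on each array.

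The second comparison asked whether the depressive state moved these genes within a tissue. None of the 36 genes reached 2-fold in cerebellum or in prefrontal cortex, where 1.1% and 0.788% of all genes measured did. In cerebellum 20 of 36 lay above 0, beside 40.1% of all genes, and the median was 0.01 beside -0.03. In prefrontal cortex 16 of 36 lay above 0, beside 47.1%, and the median was -0.02 beside -0.01. In cerebellum 34 and in prefrontal cortex 33 genes lay within 0.2 of 0, as did 79.8% and 84.4% of all genes. In the limma fit of state with tissue as a block, 0 of 36 genes passed an adjusted p of 0.05 and 2, Gjb6 and Aqp4, had an unadjusted p under 0.05, beside 0% and 7.78% of 11618 genes. The adjusted p over the 36 genes was 0.641 or more, and 0.527 or more under the other settings with files read by the value table. With 1 residual degree of freedom, this does not show that the genes were equal.

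**Figure D3:**
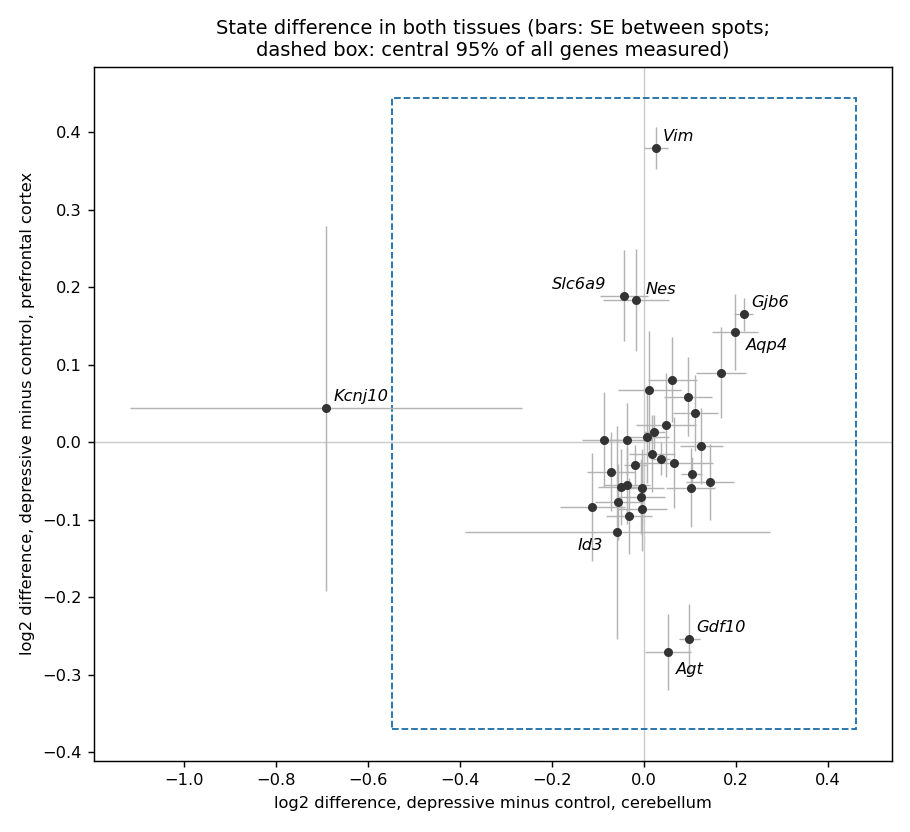
Depressive-minus-control log2 difference of each of the 36 genes in cerebellum (horizontal axis) and prefrontal cortex (vertical axis), with bars for the SE between spots and a dashed box for the central 95% of all genes measured in each tissue. Only Kcnj10, the dimmest gene, lies outside the box, and Vim, Agt and Gdf10 lie farthest from 0 in prefrontal cortex.

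Gfap, the gene most often read for astrocyte reactivity, had log2 differences of -0.02 (SE 0.02) in cerebellum and -0.03 (SE 0.03) in prefrontal cortex. Its spots on the control arrays covered 0.43 to 0.55 and -0.55 to -0.43, and those on the depressive arrays 0.25 to 0.59 and -0.58 to -0.46, so that the states overlapped in both tissues. The glutamate genes stayed as near to 0: Slc1a2 at -0.04 and 0.002, Slc1a3 at -0.04 and -0.06, and Glul at 0.02 and -0.01. All 4 metabolic genes lay below 0 in both tissues, Aldoc at -0.11 and -0.08 and Aldh1l1 at -0.07 and -0.04, with SE of 0.05 to 0.07. After quantile normalization the state fit gave Aldoc -0.007, Aldh1l1 -0.04, Acsbg1 -0.0002 and Ndrg2 0.01. Over the 36 genes, 11 lay above 0 in both tissues, 11 below 0 in both and 14 had opposite signs. Shares of shared signs over all genes were not computed, but 40.1% lay above 0 in cerebellum and 47.1% in prefrontal cortex.

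Gjb6 and Aqp4 had the smallest p of the set, and neither passed the adjustment. Gjb6 gave 13978 in the control and 17660.4 in the depressive cerebellum pool and 14721 and 17364 in prefrontal cortex, which is 1.16-fold and 1.12-fold higher (log2 0.22 and 0.17, SE 0.02 each). Of all genes, 18.1% in cerebellum and 20.6% in prefrontal cortex differed as much. The 10 spots of Gjb6 did not overlap between the states in either tissue. Spots of Clu parted in cerebellum too, with control spots up to 4.359 and depressive spots from 4.367. Spots repeat 1 probe on 1 array, so such a gap does not measure rats. Under median scaling, which lowered the median of all genes in cerebellum to -0.33, the difference of Gjb6 there was -0.08. Aqp4 gave 81339.9 and 101411 in cerebellum and 33723 and 39146 in prefrontal cortex, 1.15-fold and 1.103-fold higher, and -0.10 in cerebellum under median scaling. Its other probes gave 0.03 and -0.06 in cerebellum and -0.12 and -0.06 in prefrontal cortex, so the difference rests on its brightest probe.

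Vim had the largest difference in prefrontal cortex. It gave 1665 in control and 2279 in depressive rats there, 1.30-fold higher (log2 0.38, SE 0.03), and 5.60% of all genes differed as much. Its spots did not overlap, the highest control spot lying at -0.82 and the lowest depressive spot at -0.57. In cerebellum Vim gave 6729.5 and 7445, a log2 difference of 0.03. Meningeal genes moved with it in prefrontal cortex: 9 of 10 were above 0 with a median of 0.75, against 7 of 10 and 0.12 in cerebellum, and none of the 10 was below background on any array. Ptgds, an enzyme of prostaglandin synthesis, had 1.00 there and Igf2, a growth factor, 0.96. All 12 oligodendrocyte genes also lay above 0 in prefrontal cortex, with a median of 0.33, and endothelial genes had medians of 0.12 in cerebellum and 0.06 in prefrontal cortex. Their part in the difference of Vim was not tested. Nes and Slc6a9 had 0.18 and 0.19 in prefrontal cortex and -0.02 and -0.04 in cerebellum. Their dimmer probes gave 0.03 and 0.13 in prefrontal cortex and 0.08 and -0.13 in cerebellum.

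Agt and Gdf10, both higher in cerebellum, had the lowest values in prefrontal cortex, 1.21-fold and 1.19-fold lower on the depressive array (log2 -0.27 and -0.25, SE 0.05 and 0.05). In cerebellum they had 0.05 and 0.10, and under median scaling both lay below 0 there, Gdf10 at -0.20. The 10 spots of Gdf10 in prefrontal cortex ran from -3.53 to -3.29 in control and from -3.83 to -3.53 on the depressive array, so they did not overlap, though by a narrow margin. In prefrontal cortex all 7 Purkinje cell genes lay below 0, with a median of -0.13. So did 5 of 8 choroid plexus genes, with a median of -0.61, while granule neuron genes had a median of -0.04. At least 2-fold lower were 2 of 7 Purkinje cell, 1 of 6 granule neuron and 4 of 8 choroid plexus genes, and 0 were 2-fold higher. Over all genes 0.788% passed 2-fold in either direction. Purkinje cell genes ran from -1.62 (Ppp1r17, a bound) to -0.03 and granule neuron genes from -1.30 (Gabra6) to 0.24. In cerebellum all 7 Purkinje cell genes (median -0.12) and all 7 granule neuron genes (-0.10) lay below 0 as well. Choroid plexus genes summed to 9.65 in control and 3.42 in depressive prefrontal cortex, in units of the 75th percentile. Bright genes weigh most in this sum. Ttr, the brightest of them there, gave signals of 25617 and 6076, a log2 difference of -2.15. Aqp1, Kcnj13 and Enpp2 lay above 0, at 0.96, 0.57 and 0.12. Timp4 and Ednrb, which were also at least 2-fold higher in cerebellum, had differences of 0.003 and 0.01. Whether the other cell types bear on Agt and Gdf10 was not tested.

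Kcnj10 had the largest difference in cerebellum, at -0.69, but with an SE of 0.43 at signals of 55.6 and 37.5, and it was -0.10 after normexp. Blood genes were higher in both tissues, with medians of 1.74 and 1.72. Ependymal and choroid plexus genes had medians of 0.62 and 0.60 in cerebellum. Of the further astrocyte genes, 14 of 37 lay above 0 in cerebellum (median -0.04) and 16 of 36 in prefrontal cortex (median -0.01), and of 36 tested 0 passed the state fit. Of 8 sonic hedgehog pathway genes, 1 lay above 0 in each tissue, beside 40.1% of all genes in cerebellum and 47.1% in prefrontal cortex, with medians of -0.12 and -0.15. In the fit 0 of 8 passed and 3 had an unadjusted p under 0.05, beside 7.78% of all genes. Of 20 genes linked to reactive astrocytes measured in cerebellum, 17 lay above 0, with a median of 0.11, and of 21 in prefrontal cortex 9 did, with a median of -0.06, against the same shares of all genes. In the fit 0 of 19 passed and 3 had an unadjusted p under 0.05.

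**Figure D4:**
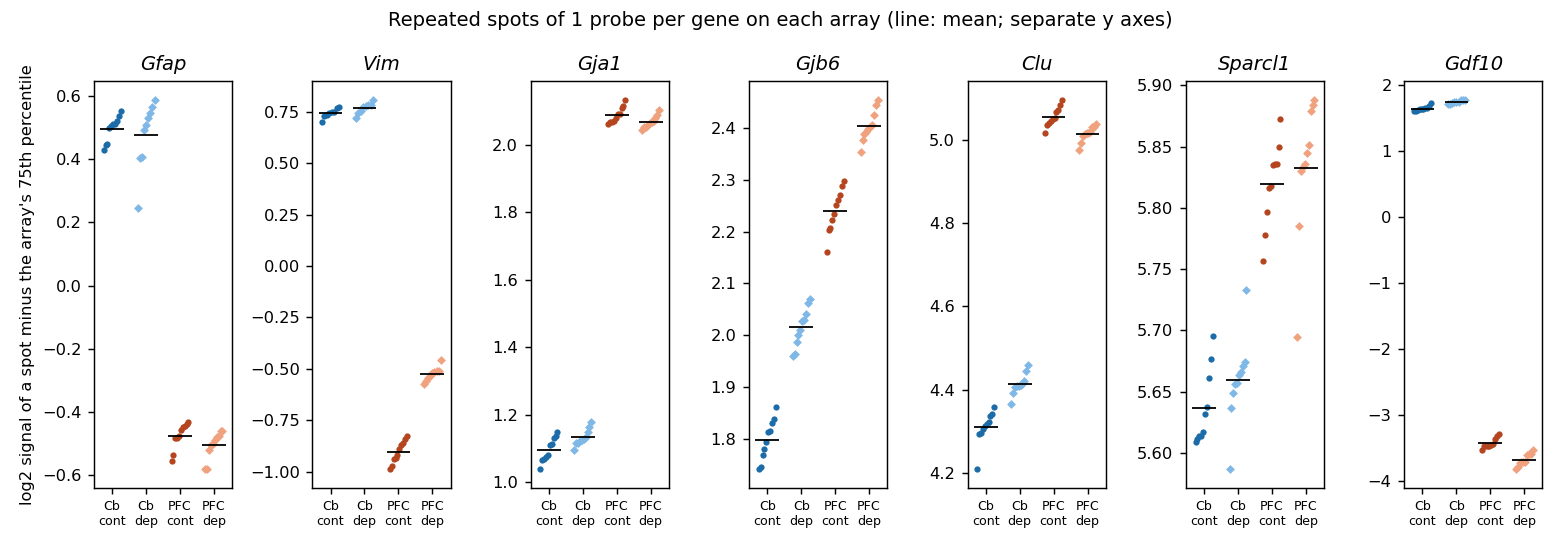
Scaled log2 signal of each repeated spot for the 7 genes whose probe is printed 10 times on each array, with outlier spots left out, a line at the mean and a separate vertical axis per gene (Cb, cerebellum, PFC, prefrontal cortex, cont, control, dep, depressive). Spots of Gjb6 do not overlap between the states in either tissue, those of Vim only part in prefrontal cortex, and those of Gfap overlap between states in both tissues. Spots of Clu part between the states in cerebellum and those of Gdf10 in prefrontal cortex.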

How the data were processed

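RNA of 4 arrays, 1 per tissue and state, was measured with 1 Cy3 colour. Per the file headers, the scanner software was Agilent Feature Extraction 10.7.1.1 with protocol GE1_107_Sep09, and the deposited files hold a background-subtracted intensity per spot with flags. The value table deposited by the authors holds a scaled intensity of 23207 probes. The 38 genes and the lists of further markers were chosen with earlier results of these data known.

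Control and outlier spots were left out, log2 intensity was averaged per probe, and the 75th percentile over the spots of each array was subtracted. Of 30367 probes, 18347 were named through RefSeq accessions of assembly GRCr8. Probes with the flag for well above background on at least 50% of their spots were taken as measured, and genes with 1 such probe likewise. Differences with 1 dim array are bounds. Tissue and state were fitted with limma 3.58.1 in R 4.3.3, and adjusted p-values are Benjamini-Hochberg. Only the tissue fit was tried on simulated data, with noise drawn from the fit itself, and the state fit was not. SE between spots was pooled over probes in 20 bins of brightness. Each file matched its value-table column at r of 0.99994 or more. The labels do not say whether both tissues came from the same rats. With 1 pool per tissue and state, no spread between pools of a group could be measured. In the fits of tissue and state, the 1 residual degree of freedom is how far the tissue difference changes with state. The p-values rest on that change, with its spread shared over genes. The number of arrays limits the precision. All 38 genes are accounted for, and of the further lists of astrocyte genes up to 3 with the largest tissue difference are named. Shh and Gli3 are named besides these. The planned normexp correction used median spot signals, since the files hold no mean signal. Alternatives were other scalings, all probes of a gene, the value table, no filter on dim probes, tissue without the block and files as linked. Each array was also left out in turn, again without the block. A further alternative, the 75th percentile over probes in place of spots, was chosen after seeing the data.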

Additional observations from a re-analysis of the deposited data

Results flagged for a closer look

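Gdf10 differed between the tissues in the sign of its depressive-minus-control difference, at 0.10 on the log2 scale in cerebellum and -0.25 in prefrontal cortex, each more than 2 SE between spots from 0. Under median scaling the values were -0.20 and -0.21, so the sign no longer differed. That setting shifts all genes of an array alike and took the median of all genes in cerebellum to -0.33. Its median is over probes well above background, 23759 on the control and 22201 on the depressive cerebellum array. With 1 array in each group the difference between the tissues was not tested.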

How the results depend on the processing

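With scanner files as linked to the samples, 2 arrays change places: 0 genes reached 2-fold between tissues in control and 0 in depressive rats, 12 did between states in cerebellum and 12 in prefrontal cortex (medians 0.13 and 0.15), and 0 passed the tissue fit and 29 the state fit. The cause lies in the construction, as tissues are then compared within a tissue. Under it the tissue difference turned to -0.026 for Vim, 0.058 for Id3, 0.036 for Slc1a2, -0.012 for Slc4a4, -0.053 for Agt, -0.10 for Gdf10 and -0.0062 for Ednrb in control rats. In depressive rats it turned to -0.38 for Vim, 0.12 for Id3, -0.19 for Slc6a9, -0.067 for Slc4a4, 0.027 for Cldn10, -0.0031 for Timp4, -0.0063 for Ednrb and 0.0054 for Ntsr2. In the fit it turned to -0.20 for Vim, 0.087 for Id3, -0.13 for Id4, 0.016 for Slc1a2, -0.073 for Slc6a9, -0.17 for Aqp4, -0.039 for Slc4a4, 0.038 for Mlc1, 0.054 for Acsbg1, 0.067 for Apoe, 0.045 for Fgfr3 and -0.0063 for Ednrb. With files read by the value table, quantile normalization turned Sparcl1 to 0.034 in the fit, and the cause was not tested. Median scaling took the cerebellum median between states to -0.28, with all 36 genes below 0 and the median of all genes at -0.33. It also moved the median of all genes between tissues to 0.17 in control and -0.23 in depressive rats. Of the 29 genes called in the tissue fit, 20 passed under all 8 other settings that kept every array and read files by the value table. Slc1a3, S100b, Mlc1 and Acsbg1 lost their call under 1 of these, median scaling. Over all genes, the 140 at 2-fold between states in cerebellum became 33 to 347 and the 99 in prefrontal cortex 14 to 259 under the settings that read files by the value table, the 8455 in the tissue fit became 5072 under median scaling, and the 0 in the state fit 5 after normexp and 24 after median scaling. Pairing by rat was not possible, as each tissue and state is 1 pooled array. The main tissue fit has state as a block and the state fit has tissue.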
